A study of Rattus norvegicus with 102 samples.

Results

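The dentate gyrus (DG) of 12 aged-impaired (AI) rats was compared with the DG of 10 young rats, which together took 22 of the 34 DG libraries, beside 34 libraries from CA1 and 34 from CA3. The members were every library labelled as DG from an old rat of the impaired class or from a young rat, and the 12 DG libraries of aged-unimpaired (AU) rats served only as a reference. All rats were male and of the inbred Fischer 344 strain (Fisher 344 in the labels), and all had been trained in a water maze before the tissue was taken. The young rats were 5 to 6 months old and the old rats 17 to 22 months old. No drug, diet or genetic change was named for any group, so age and maze class are what set the AI rats apart from the young rats. The class rests on the probe trial of 1 maze task, and with young and AI rats alone a difference of age cannot be told apart from a difference of impairment. Each library was made from the DG dissected from 1 rat, so that the replicates were separate animals.

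The DG receives the main cortical input to the hippocampus. Its principal cells are granule neurons, and it is among the few places where neurons are still added in the adult rodent brain. Microglia, the resident phagocytes of the brain, survey this tissue, present antigen on major histocompatibility complex (MHC) class II molecules when activated, and make much of the brain's complement, a cascade of proteins that tags material for removal. In rats the MHC carries the prefix RT1 and lies on chromosome 20.

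Values are normalised reads, which are gene counts divided by a size factor for each library. Poly-A RNA read on an Illumina instrument gave the main table, and an Ion Proton table from RNA of the same rats bears on technical error only. Another table, which the submitters named WT without stating its library type, served as a further check. The Illumina libraries of the 22 rats held 5.314 to 41.22 M reads on genes, with a median of 12.13 M, the Ion Proton libraries 4.47 to 18.71 M and the WT libraries 3.942 to 13.72 M.

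The labelled tissue was checked with granule cell markers, which gave 20 of the 22 libraries a granule score (mean log2 level of these markers, centred on the libraries of all 3 subfields) above 0 in both poly-A tables. The AI library of rat R9781 had a score of -1.25 in the Illumina table and lay nearer to CA3 than to DG in both poly-A tables. The young library of rat R9881 had a score of -0.50, and its summed choroid plexus markers stood at 7332 normalised reads while the median of the young libraries was 1040. The young library of rat R9876, with a score of 0.72, lay nearer to CA1 in the Illumina table but not in the Ion Proton table. All libraries stayed in, and main results that rest on R9781 and R9881 are given with and without them. The rats also fell into a number series below 9000 (7 AI, 5 young) and a number series from 9000 up (5 AI, 5 young), which the labels do not explain. The study pooled rats of 2 colonies that were trained at 2 sites, and the labels do not tie a rat to either, so what the series stand for was not tested.

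A total of 14031 genes were tested in the Illumina table with limma on log2(value + 1). Calls required a p under 0.05 after Benjamini-Hochberg adjustment. A total of 14 genes were called, or 0.0998% of those tested, all of them higher in AI rats, and 0 genes (0%) were called lower. With the number series as a term in the fit, 57 genes (0.406%) were called higher and 2 (0.0143%) lower. At an unadjusted p under 0.05, 454 genes (3.24%) were higher and 290 (2.07%) lower. DESeq2 called 33 genes and edgeR 12 on the recovered reads. A wider set of retested genes had an unadjusted Illumina p under 0.01 and a one-sided Ion Proton p under 0.05 in the same direction. It held 116 higher genes (0.827% of those tested) and 17 lower genes (0.121%). The higher retested genes ranged in log2 change from 0.10 to 2.79 with a median of 0.37, and the lower ones from -1.09 to -0.10 with a median of -0.31. The median change of all tested genes was -0.002.

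MHC class II genes had the largest median change of the 43 gene lists examined. Of the class II genes 5 passed the filter on low values, all 5 were higher in AI rats, 4 were called and all 5 were retested, with a median log2 change of 2.25. RT1-Da encodes an alpha chain and RT1-Db1 a beta chain of one class II molecule, RT1-Ba encodes an alpha chain of another, and Cd74 encodes the invariant chain that guards the binding groove until antigen is loaded. LOC688090 is named only by its locus and was placed in the class II list. RT1 genes belong to a family of similar sequences, so reads can be shared between copies, and RT1-Db2, a close relative of RT1-Db1, was listed at 0 in all 22 Illumina libraries.

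The promoters of the 3 called class II genes with an entry among the RefSeq promoter sequences (build GRCr8) are shown because these genes rose together. Each window runs from 250 bases before to 50 bases after the annotated start, 5′ to 3′ on the strand of the gene. Capitals mark matches to GCAACNG and to CTGATTGG, letters of the X and Y boxes for which class II promoters are known.

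RT1-Ba, chr20:4576807-4577106, plus strand: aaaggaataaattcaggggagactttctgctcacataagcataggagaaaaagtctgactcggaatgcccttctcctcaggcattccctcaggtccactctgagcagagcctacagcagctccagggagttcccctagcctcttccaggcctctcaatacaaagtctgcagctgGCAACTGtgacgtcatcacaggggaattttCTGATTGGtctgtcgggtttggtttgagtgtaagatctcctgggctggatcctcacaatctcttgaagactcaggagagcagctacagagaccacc
RT1-Da, chr20:4515165-4515464, plus strand: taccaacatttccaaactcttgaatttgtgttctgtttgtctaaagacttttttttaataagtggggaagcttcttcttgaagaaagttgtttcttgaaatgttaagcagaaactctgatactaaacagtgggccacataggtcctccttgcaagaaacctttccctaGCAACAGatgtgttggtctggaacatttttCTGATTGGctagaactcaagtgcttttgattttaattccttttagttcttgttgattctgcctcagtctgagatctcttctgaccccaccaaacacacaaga
RT1-Db1, chr20:4560113-4560412, minus strand: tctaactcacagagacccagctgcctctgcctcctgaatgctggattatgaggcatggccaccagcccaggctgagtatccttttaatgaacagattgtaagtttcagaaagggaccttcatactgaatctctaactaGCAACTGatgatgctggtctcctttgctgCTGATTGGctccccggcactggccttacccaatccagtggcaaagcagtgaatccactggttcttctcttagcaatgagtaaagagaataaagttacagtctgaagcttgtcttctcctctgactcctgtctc

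In all 3 windows GCAACNG preceded CTGATTGG on the strand of the gene, with 23 bases between them in RT1-Ba and RT1-Da and 22 in RT1-Db1. CTGATTGG began 46, 52 and 83 bases before the start in RT1-Ba, RT1-Da and RT1-Db1. On either strand, CTGATTGG was held by 3.50% of the 33469 promoter windows of this length, GCAACNG by 12.2% and both by 0.394%. Of the 11 genes in the class II list, 8 had a window, of which 5 held CTGATTGG, 4 held GCAACNG and 3 held both. The windows of Cd74 and RT1-DMa held neither run of letters. Among the 10 called genes outside the list, 6 had a window, of which that of Cd68 held CTGATTGG and those of C4a and Cyp2a3 held GCAACNG. The 2 runs of letters did not overlap in these windows, and a match of letters is not a measured binding site.

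RT1-Db1 (ENSRNOG00000033215) stood at 4.58, 7.36 and 25.7 normalised reads in the lowest, median and highest young library and at 14.9, 73.0 and 168 in the AI libraries. In 9 of 12 AI libraries the value was above every young library, and the log2 change was 2.66 (SE 0.41 and adjusted p = 0.0047 from limma). LOC688090 (ENSRNOG00000032708) went from 3.15, 9.92 and 22.0 in young to 12.2, 69.0 and 166 in AI rats, a log2 change of 2.57 (adjusted p = 0.00587) with 10 of 12 AI libraries above every young one. The groups of both genes met only at their edges, where the lowest AI libraries reached into the young range.

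RT1-Ba (ENSRNOG00000000451) had 6.30, 12.2 and 37.4 normalised reads in young and 18.4, 74.0 and 204 in AI rats, with a log2 change of 2.25 (adjusted p = 0.0179). RT1-Da (ENSRNOG00000032844) had 4.58, 13.7 and 45.0 in young and 20.1, 93.1 and 224 in AI rats, with a log2 change of 2.21 (adjusted p = 0.033). For each of them 8 of 12 AI libraries were above every young library. Cd74 (ENSRNOG00000018735) was the most abundant, at 39.5, 90.4 and 199 in young and 95.0, 399 and 948 in AI rats. Its log2 change of 1.88 (SE 0.38) missed the threshold at an adjusted p of 0.0528, and it passed in edgeR (adjusted p = 0.0268), in DESeq2 (adjusted p = 0.000165) and without rats R9781 and R9881 (adjusted p = 0.0325), but not without R9781 alone (adjusted p = 0.0916). It was called in 6 of 22 fits that left out 1 rat and in 13 of 37 alternatives in all. Ciita, the class II transactivator, was below the filter at 0.399 to 5.03 in young and 1.34 to 11.8 in AI rats.

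The rise was not spread evenly over the AI rats. In 8 of 12 AI rats all 5 class II genes were above every young library, and in 2 AI rats, R1931 and R2233, none was. These 8 held all 5 AI rats numbered from 9000 up and 3 of the 7 numbered below 9000. Rat R9781 had the highest AI value of all 5 genes, and without it the median log2 change of the list was 2.11. Class II medians were higher in the series from 9000 up in both groups. The young ranges of the 2 series overlapped for RT1-Db1, at 4.58 to 9.70 below 9000 and 5.11 to 25.7 from 9000 up. They also overlapped for LOC688090 and RT1-Ba but not for RT1-Da and Cd74, and no class II gene was called between the series. Young RT1-Da ran from 4.58 to 12.1 below 9000 and from 15.3 to 45.0 from 9000 up. Cd74 ranged from 39.5 to 83.7 in young rats below 9000 and from 97.1 to 199 in those from 9000 up, and from 95.0 to 479 against 571 to 948 in AI rats. Between the young rats of the 2 series 117 genes (0.834%) were called. There RT1-Da had p = 0.00111 and an adjusted p of 0.0743, and Cd74 p = 0.00234 and an adjusted p of 0.0971, all from limma.

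Within each series AI rats were still higher. For RT1-Db1 the log2 change of AI against young was 2.29 below 9000 and 3.33 from 9000 up, and for Cd74 1.70 and 2.35. For RT1-Db1, RT1-Da and Cd74 no AI library reached into the young range of its own series. Counted over all genes, 11 (0.0784%) had AI libraries above young libraries without overlap in both series and 0 (0%) had them below. These 11 were Cdh1, C4a, RT1-Db1, Emr1, Fcgr2b, Cd68, RT1-Da, Cd74, C4b, Mpeg1 and Gpr183, of which 7 were called and 10 retested. A test of whether the AI effect differed between the series called 0 genes (0%) with limma, with 292 at an unadjusted p under 0.05, and gave RT1-Db1 a difference of 1.04 (p = 0.0856 from limma). In that joint fit of both series 12 genes (0.0855%) were called below 9000 and 11 (0.0784%) from 9000 up, all higher in AI rats, and all 5 class II genes were called in each series. When each series was fitted alone, with fewer rats to estimate the spread, the rats from 9000 up gave 5 called genes, the 5 class II genes, and those below 9000 gave 2, which were Cdh1, higher, and Tspan18, lower. With the series as a term, several genes that missed the threshold without it were called by limma, with adjusted p of 2.80e-05 for Cd74, 0.00639 for C4b, 0.0203 for C1qa, 0.016 for C1qb, 0.0266 for Psmb9, 0.0325 for Trem2, 0.0021 for Gpnmb, 0.0266 for Ctsz and 0.043 for Dmrta2, the last of them lower.

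**Figure D1:**
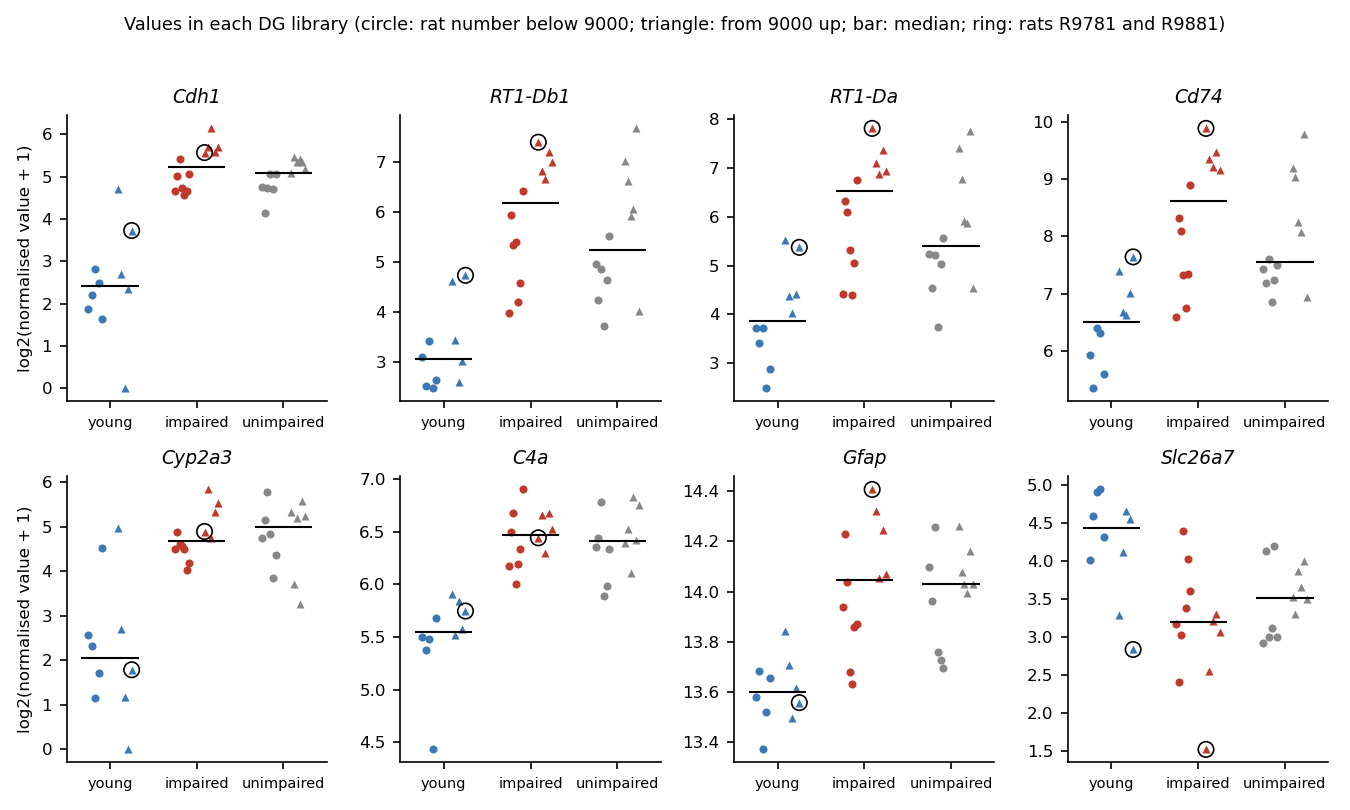
Each point is 1 DG library, on the vertical axis as log2(normalised value + 1), for young, impaired and unimpaired rats, with a bar at the group median. Circles are rats numbered below 9000, triangles those from 9000 up, and rings mark rats R9781 and R9881. The AI libraries of RT1-Db1, RT1-Da and Cd74 sit above the young libraries of the same symbol, and those of C4a sit above all 10 young libraries.

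Cdh1 (ENSRNOG00000020151, chromosome 19), which encodes the epithelial adhesion protein E-cadherin, had the largest change of any tested gene on the log2(value + 1) scale of limma. In edgeR its change was 2.35, below the 2.84 of RT1-Db1, the 2.83 of LOC688090 and the 2.39 of RT1-Ba. Cdh1 and Cyp2a3 passed the filter only through the AI rats, with young means of 6.60 and 7.39 normalised reads and AI means of 39.0 and 28.8. It stood at 0, 4.33 and 25.2 normalised reads in the lowest, median and highest young library and at 22.8, 37.0 and 69.6 in AI rats. The young library at 25.2 was that of rat R9780, and 9 of 12 AI libraries were above it. The log2 change was 2.79 (SE 0.37 and adjusted p = 0.00129 from limma) in the Illumina, 2.68 (adjusted p = 0.00823) in the Ion Proton and 2.44 (adjusted p = 0.00438) in the WT table, where all 12 AI libraries lay above the young ones. Of the 35 cadherins and protocadherins tested, only Cdh1 was called, and Cdh23 was also retested, at a log2 change of 0.46. The median of that list was 0.05.

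Cyp2a3 (ENSRNOG00000028900, chromosome 1), a cytochrome P450 of a family of similar genes, had 0, 3.22 and 30.2 normalised reads in young and 15.3, 24.7 and 56.0 in AI rats. Its log2 change was 2.51 (SE 0.44 and adjusted p = 0.0134 from limma), every AI library was above the young median, and 3 were above the highest young library. The call was lost in edgeR, at a log2 change of 1.68 and an adjusted p of 0.26. Gipr (ENSRNOG00000015860, chromosome 1), the receptor of the gut hormone GIP, rose from 48.1, 78.2 and 137 to 89.8, 157 and 227, with a log2 change of 0.94 (adjusted p = 0.0361 from limma) and 8 of 12 AI libraries above every young library. Its call was also lost in edgeR, at 0.91 and an adjusted p of 0.0507.

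Complement genes were higher with smaller changes. Of 17 tested members 15 were higher in AI rats, 1 was called and 7 were retested, with a median log2 change of 0.30. C4a (ENSRNOG00000000443), a form of the fourth component, stood at 20.6, 45.8 and 59.1 in young and 63.0, 87.6 and 119 in AI rats, so that all 12 AI libraries were above all 10 young libraries. Its log2 change was 0.94 (SE 0.14 and adjusted p = 0.00394 from limma). Only C4a and Emr1, 0.0143% of the genes tested, had groups that did not overlap with AI higher. C4b had 9.16, 27.7 and 35.0 in young and 30.6, 44.4 and 84.9 in AI rats, with a log2 change of 1.02 (adjusted p = 0.0619). C4a and C4b are near-identical copies, so the split of reads between them is uncertain.

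Genes of the first component of the cascade had smaller changes. C1qa, a chain of C1q, went from 636, 767 and 955 in young to 781, 999 and 1423 in AI rats, a log2 change of 0.37 with an adjusted p of 0.144 (limma), and C1qb had a change of 0.32 (adjusted p = 0.199). C3, on which the pathways of complement converge, had a change of 0.88 and was retested. The receptors C3ar1 and C5ar1 had changes of 0.08 and -0.16 and passed no threshold.

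Genes of microglia and phagocytes were higher almost throughout their lists. All 18 tested homeostatic microglial genes were higher, with a median log2 change of 0.26, and 8 were retested with none called. All 22 tested genes of activated microglia and phagocytes were higher, with a median of 0.36, of which 2, Fcgr2b and Cd68, were called and 7 retested. Emr1 (ENSRNOG00000046254), which encodes the macrophage marker F4/80 and stood in none of the lists, was also called and had 105, 154 and 163 in young and 172, 197 and 237 in AI rats, with a log2 change of 0.46 (limma adjusted p = 0.0047). Fcgr2b, the inhibitory receptor for antibody, had 52.7, 65.5 and 99.3 in young and 85.8, 124 and 159 in AI rats, with a change of 0.78 (adjusted p = 0.0055).

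Trem2, a lipid-sensing receptor of microglia, had a change of 0.38, and Cd33, an inhibitory receptor that binds sialic acid, one of 0.43. Both were retested with adjusted p of 0.167 and 0.179 from limma, and Cd33 was called in the WT table at 0.61 (adjusted p = 0.0364). Gpnmb, a glycoprotein of phagocytes, had a change of 0.70 (adjusted p = 0.12), with the young library of rat R9881 standing at 199.8 and the other young libraries at 91.0 to 132. Gpnmb passed the threshold without rats R9781 and R9881 at 0.71 (adjusted p = 0.028), but not without R9781 alone (adjusted p = 0.175) or in edgeR (adjusted p = 0.12), while DESeq2 called it (adjusted p = 0.0103), and it was called in 2 of 22 fits that left out 1 rat.

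All 26 tested lysosomal genes were higher, with a median log2 change of 0.12, of which 1 was called and 7 were retested. The called gene was Cd68, a glycoprotein of phagocyte lysosomes, at 3.64, 11.2 and 15.4 in young and 15.3, 19.8 and 23.8 in AI rats, a change of 0.90 (limma adjusted p = 0.0253). Cd68 was not retested, since its Ion Proton change was 0.33 (p = 0.229 from limma). Ctsz, which encodes cathepsin Z, had a change of 0.53, and the protease gene Lgmn one of 0.23, both retested with adjusted p of 0.12 and 0.157 from limma.

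Together, 133 of the 14031 tested genes stood in at least 1 of the 7 lists of MHC, complement, microglial, lysosomal and interferon genes, and 125 of them were higher in AI rats, while 49.1% of all tested genes were. They made up 7 of the 14 called genes, 35 of the 116 higher retested genes and 0 of the 17 lower retested genes. By position, 5 of the 14 called genes (35.7%) and 15 of the 116 higher retested genes (12.9%) were on chromosome 20, which held 2.81% of the genes tested.

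Class I antigen processing genes and interferon-stimulated genes had smaller changes than class II genes. Of 19 tested class I genes 3 were retested and none called, with a median log2 change of 0.07. The 3 were Psmb9 (0.65, limma adjusted p = 0.0905) and Psmb8 (0.45, 0.585), subunits of the immunoproteasome, and Tap1 (0.36, 0.302), a peptide transporter. The change of Tap1 was 0.58 below 9000 and 0.12 from 9000 up, with p = 0.0236 from limma for the difference before adjustment. Psmb9 went from 18.2, 28.1 and 40.5 in young to 32.8, 42.7 and 60.9 in AI rats. Of 31 interferon-stimulated genes 28 were higher, with a median of 0.14, and none was called or retested.

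In bulk tissue, more cells of a type and more RNA in each cell cannot be told apart, and markers of other immune cells were read beside these results. Summed homeostatic microglial markers ran from 4971 to 7268 normalised reads with a median of 6118 in young rats. In AI rats they ran from 5386 to 8627 with a median of 6958. The highest sums were those of R9881 in young and R9781 in AI rats. Without R9781 the median log2 change of this list was 0.23, and without both rats 0.28. The part of these markers in the results was not tested. Mrc1 and Cd163, markers of macrophages at blood vessels and meninges, had log2 changes of 0.01 (SE 0.27) and -0.08 (SE 0.39), which ran from -0.25 to 0.20 and from -0.36 to 0.35 over the alternative settings. Of T cell markers, Cd3e ran from 0 to 84.0 in young and from 0 to 58.5 in AI libraries, Cd3g reached at most 6.06 and 1.85, and Cd8a at most 3.68 and 5.90. Cd6, a T cell surface receptor outside the list, was retested at a change of 0.55 (adjusted p = 0.108 from limma). Ms4a1 of B cells reached at most 1.09 in young and 1.02 in AI libraries. The summed T cell list ran from 118 to 224 with a median of 189 in young rats. In AI rats it ran from 161 to 353 with a median of 252. Cd4, a member of the list, alone ran from 49.4 to 157 in young and from 95.2 to 261 in AI rats. The part of the list in the results was not tested. Of the 17 T cell genes 9 had a median of 0 over the 22 libraries, and of the 4 that passed the filter only Cd4, which rat microglia and macrophages also carry, was retested, at a change of 0.70. Summed haemoglobin and other blood markers ran from 692 to 2393 with a median of 1213 in young and from 744 to 3763 with a median of 1639 in AI rats. All 6 tested blood genes were higher, with a median change of 0.45 in the Illumina and 0.79 in the Ion Proton table, and none was called or retested, and their part in the results was not tested.

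Among astrocyte genes Gfap, the intermediate filament of astrocytes, was called. It had 10591, 12409 and 14672 normalised reads in young and 12673, 16920 and 21724 in AI rats, with 10 of 12 AI libraries above every young one and a log2 change of 0.43 (SE 0.08 and adjusted p = 0.033 from limma). The urea transporter Slc14a1 was retested at 0.24 (adjusted p = 0.0932). Of the 15 tested astrocyte genes only these passed either threshold, and the median of the list was 0.06. Anxa4, a calcium-dependent membrane-binding protein, and Man2b2, a mannosidase, were the remaining called genes, with changes of 0.44 (adjusted p = 0.0434) and 0.25 (adjusted p = 0.0179), and were named after their values were seen, as was Emr1. The call of Anxa4 was lost in edgeR (adjusted p = 0.0599). Man2b2 was listed at 0 in all AI libraries of the Ion Proton table and could not be tested there.

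**Figure D2:**
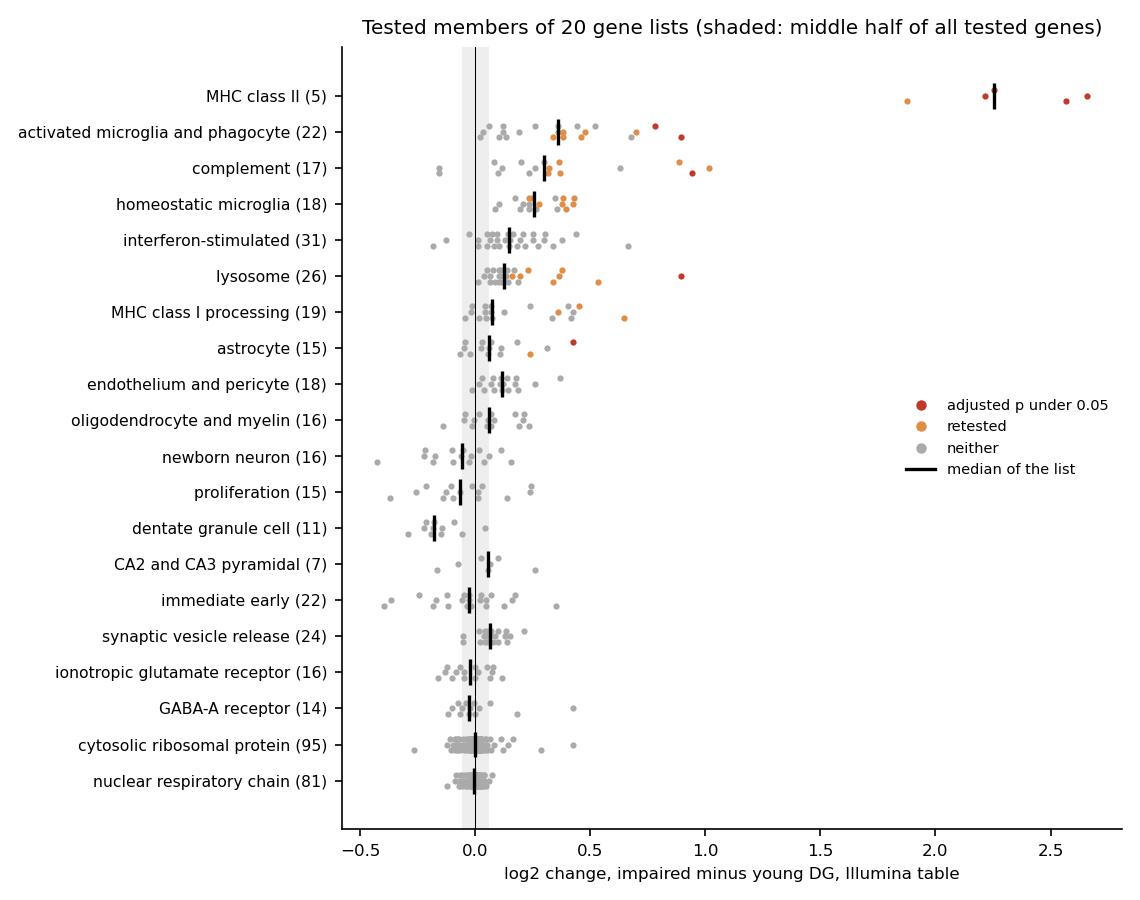
Each point is the log2 change of 1 tested gene in AI against young DG on the horizontal axis, in 20 lists with the number of tested genes in brackets. Red points are called, orange points retested, black bars are list medians and the shaded band spans the interquartile range of all tested genes. The 5 class II genes lie between 1.88 and 2.66, and the granule cell list has the lowest median, at -0.18.

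No list of neuronal genes held a called or retested gene. All 11 tested granule cell markers missed both thresholds, and 10 of them were lower, with a median log2 change of -0.18. Without R9781 that median was 0.01 and without R9781 and R9881 -0.10, so its sign changed when R9781 alone was left out. It was -0.05 in rats below 9000 and -0.44 in rats from 9000 up. Prox1, the transcription factor that fixes granule cell identity, had 326, 1227 and 1651 in young and 148, 1050 and 1439 in AI rats, with a change of -0.29 (SE 0.31 and adjusted p = 0.998 from limma). C1ql2, a synaptic organiser made by granule cells, had a change of -0.14 (SE 0.38), and the sign of both genes differed between alternative settings. The lowest Prox1 value of each group belonged to rats R9781 and R9881, and the change was -0.06 without R9781 and -0.25 without both. All 13 interneuron genes were higher by 0.0009 to 0.21, with a median of 0.10, but 9 of 13 were higher in the Ion Proton table, and the median was 0.17 below 9000 and -0.02 from 9000 up.

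Genes of newborn neurons were measured because the DG adds neurons throughout life. Of 16 tested genes 5 were higher, none was called or retested, and the median was -0.06, with -0.04 in rats below 9000 and 0.06 in rats from 9000 up. Dcx, a microtubule protein of immature neurons, had 417, 564 and 1056 in young and 373, 502 and 767 in AI rats, with a change of -0.17 (SE 0.13). With 1 rat left out this ran from -0.23 to -0.08, the latter without R9881, which had the highest young value. Mki67, a marker of dividing cells, had 88.3, 199 and 253 in young and 105, 207 and 255 in AI rats, with a change of -0.02 (SE 0.17). The sign of the Mki67 change differed between alternative settings, so these libraries gave it no direction.

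Lists of ionotropic and metabotropic glutamate receptors, GABA-A receptors, calcium channels and pumps, calcium-binding proteins and kinases, vesicle release, postsynaptic scaffolds and immediate early genes held log2 changes from -0.40 to 0.43, and none of their genes was called or retested. Their medians lay between -0.03 and 0.06, and between -0.06 and 0.07 without R9781. Myelin, endothelial, nuclear respiratory chain and cytosolic ribosomal genes had medians of 0.06, 0.11, -0.004 and 0.0002, again with none called or retested. The myelin median turned to -0.03 without R9781, was 0.11 without R9781 and R9881, and was -0.05 below 9000 and 0.38 from 9000 up.

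The lower retested genes shared no list apart from 1 collagen. The 5 with the largest change were Slc26a7, Itga11, Dmrta2, Col11a1 and Tspan18, none of which was called. Slc26a7, an anion transporter, had 6.13, 20.7 and 29.8 normalised reads in young and 1.86, 8.13 and 20.1 in AI rats, with a log2 change of -1.09 (SE 0.30 and adjusted p = 0.282 from limma), and every AI library was below the young median. In the Ion Proton table it passed the filter only through the young rats, with a mean of 15.4 in young and 5.58 in AI rats. Its retested status therefore rests on the group where it was high. Its AI median of 8.13 in the Illumina table was also below the filter value of 10, while the young median was 20.7. Dmrta2, a transcription factor of the developing cortex, had 19.5, 28.4 and 43.5 in young and 10.1, 17.2 and 24.5 in AI rats, a change of -0.70 (adjusted p = 0.12) with 7 of 12 AI libraries below every young one.

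Col11a1, a chain of a fibrillar collagen, had 304, 385 and 513 in young and 142, 281 and 461 in AI rats, with 9 of 12 AI libraries below every young one. Its change was -0.61 (limma adjusted p = 0.241) in the Illumina and -1.07 (adjusted p = 0.233) in the Ion Proton table. Tspan18, a tetraspanin, had 187, 238 and 324 in young and 138, 150 and 292 in AI rats, with a change of -0.50 (adjusted p = 0.28). Itga11, an integrin that binds collagen, had a change of -0.80 (adjusted p = 0.558), and its lowest young value, 36.8, was that of rat R9881. The change of Tspan18 was -0.66 below 9000 and -0.23 from 9000 up, and that of Col11a1 -0.38 and -0.95, with p = 0.0492 from limma for each difference before adjustment. Without rats R9781 and R9881 the changes of these 5 genes ran from -1.09 to -0.52 and their adjusted p from 0.0534 to 0.205.

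**Figure D3:**
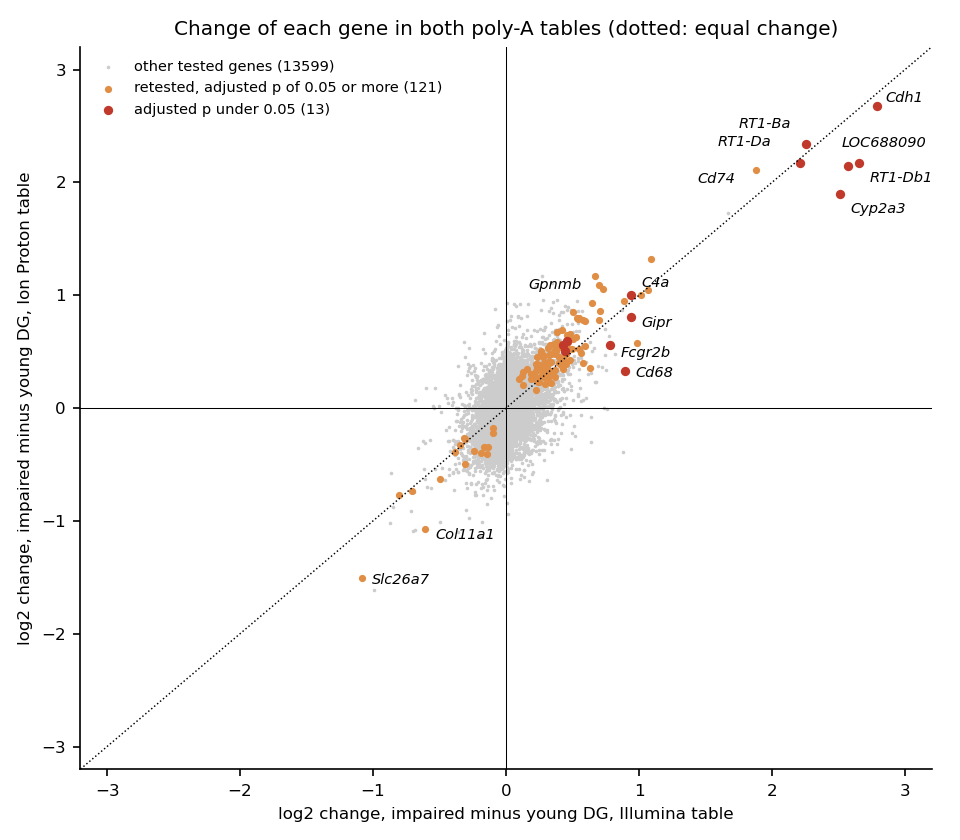
Each point is 1 gene tested in both poly-A tables, with the log2 change of AI against young DG in the Illumina table on the horizontal and in the Ion Proton table on the vertical axis. Red points are called, orange points are retested only, and the dotted line marks equal change. Cdh1, Cyp2a3 and the class II genes stand apart at the upper right, and Slc26a7 lies at the lower left.

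Each of the 14 called genes was also higher in AI rats in every check table in which it passed the filter. The Ion Proton table called 2 of 15051 genes (0.0133%), Cdh1 and RT1-Ba. The WT table called 9 of 13557 (0.0664%), of which 6 were also called in the Illumina table. The 6 were Cdh1, LOC688090, C4a, Emr1, Fcgr2b and Gfap, and the others were C4b, Cd33 and Cd53. The filter took the mean over both groups. Genes low in young rats, as Cdh1 and LOC688090 were in the Illumina table, could therefore pass it through the AI rats alone.

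The libraries of low granule score changed how many genes passed. Without rat R9781 the Illumina calls fell from 14 to 9, all of them among the 14, and RT1-Da, Gfap, Cd68, Gipr and Anxa4 were lost. Their changes without it were 2.07, 0.39, 0.87, 0.90 and 0.41, with adjusted p from 0.0576 to 0.0749 in limma. Without the young rat R9881 the calls rose to 35, and without both rats to 23, and each of these held all 14. The 133 retested genes all kept their sign without both rats, but they had been picked in fits that held these libraries. Of the 133, 120 were retested again without both rats and 105 without R9781 alone. With each of the 22 rats left out in turn, Cdh1, RT1-Db1, LOC688090, Cyp2a3, C4a, Fcgr2b, Emr1 and Man2b2 were called in all 22 fits, RT1-Ba in 19, Cd68 in 15, Gfap in 8, RT1-Da and Gipr in 7 and Anxa4 in 6.

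**Figure D4:**
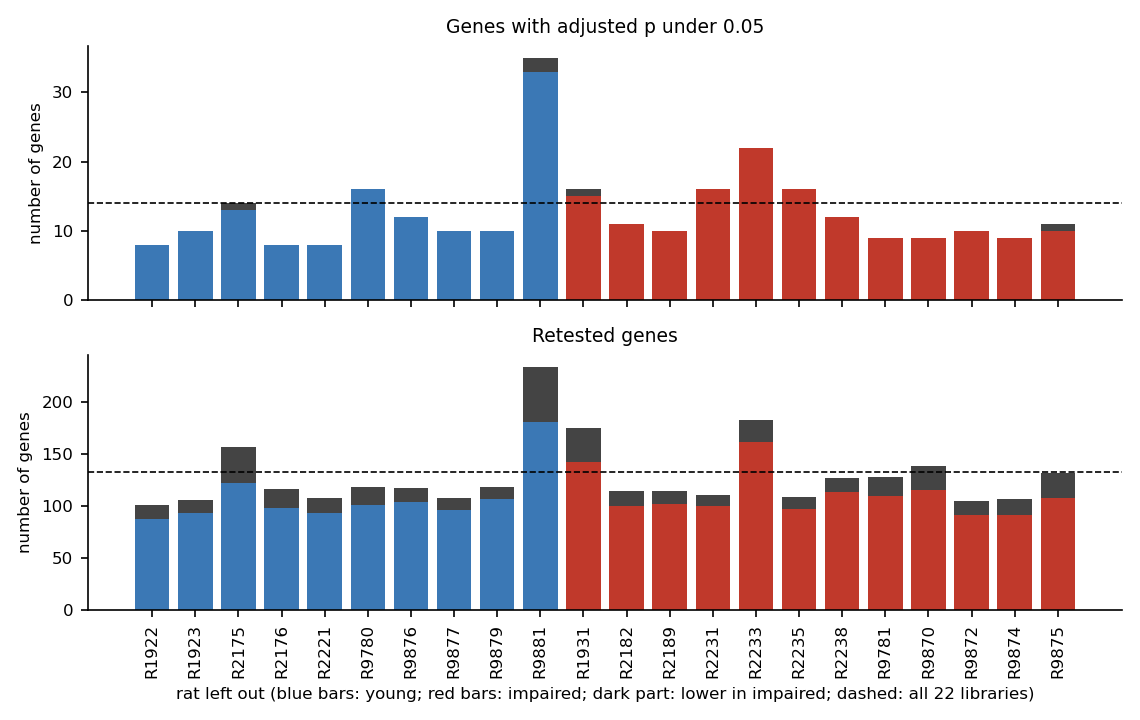
Bars give the number of called genes (upper panel) and of retested genes (lower panel) after leaving out the rat named on the horizontal axis, blue for young and red for AI rats, with genes lower in AI rats as the dark part. Dashed lines mark 14 and 133, the counts with all 22 libraries. Leaving out young rat R9881 gave 35 and 234 genes, the highest of both panels.

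The AU rats allowed a direct test of maze class among old rats. By their markers 3 of the 12 AU libraries, R2232, R9865 and R9869, lay nearer to CA1 than to DG in both poly-A tables. In a fit of all 34 DG libraries, 0 of 14019 genes (0%) differed between AI and AU rats in limma at an adjusted p under 0.05, with 505 at an unadjusted p under 0.05, and edgeR and DESeq2 also called 0, with 492 and 493 genes at an unadjusted p under 0.05. The smallest adjusted p was 0.999. Without the libraries nearer to another subfield limma also called 0, with 670 genes at an unadjusted p under 0.05. The AI and AU contrasts share the young rats, so their values are set side by side only. For the 14 called genes the median log2 change was 0.94 in AI and 0.94 in AU rats against young, and 0.12 in AI against AU rats.

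Among single genes, Cdh1 stood at 16.6, 32.8 and 43.2 in AU rats, 2.58 above young on the log2 scale, and AI minus AU was 0.21 (SE 0.30). C4a stood at 58.3, 84.0 and 113 in AU rats, with a difference of 0.05 (SE 0.13) between AI and AU. RT1-Db1 had 12.3, 37.6 and 204 in AU rats, and AI minus AU was 0.47 (SE 0.43), so a difference in either direction lay within 2 SE. All 5 class II genes were above every young library in 5 of 12 AU rats and none in 2, against 8 and 2 of 12 AI rats. Those 5 AU rats were all numbered from 9000 up, while the 8 AI rats came from both series. The highest young values of these genes were also from rats numbered from 9000 up.

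The same contrast was made in CA1 and CA3 of the same rats to ask what was particular to the DG. In a fit of 66 libraries, 0 of 14186 genes (0%) had an AI effect that differed between DG and CA1 at an adjusted p under 0.05 in limma, and 0 (0%) between DG and CA3, with 92 and 173 genes at an unadjusted p under 0.05. With the rat as a replicate block these were 0 and 0 called, with 151 and 319 at an unadjusted p under 0.05, and edgeR called 0 and 0, with 131 and 270. In CA3, 3 AI and 2 young libraries had markers closer to those of CA1 or DG in the Illumina and Ion Proton tables alike, as R9781 did to those of CA3, and no CA1 library of either group stood apart. Without these libraries limma again called 0 and 0, with 130 and 127 genes at an unadjusted p under 0.05. The median log2 change of the 14 called genes was 0.94 in DG, 0.81 in CA1 and 0.70 in CA3, and these genes had been picked by their change in DG.

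Among named genes the widest gap was that of Cyp2a3, with a change of 2.51 in DG, 0.83 in CA1 and 1.78 in CA3. Its DG effect exceeded the CA1 effect by 1.68 (SE 0.60, p = 0.00631 and adjusted p = 1.00 from limma). Cdh1 had 2.79, 1.83 and 1.35, and DG exceeded CA3 by 1.44 (p = 0.0356 and adjusted p = 0.9999 from limma). Cyp2a3 and Cdh1 had been picked with their large DG changes known, so these p values are biased towards DG. Class II genes were higher in all 3 subfields, and Cd74 had 1.88, 1.64 and 1.73. Psmb9 had 0.65, 0.39 and 0.06. Tspan18 had -0.50 in DG and -0.57 in CA1 but 0.18 in CA3. DG minus CA3 was 0.58 for Psmb9 and -0.68 for Tspan18 (p = 0.0342 and 0.0289, adjusted p = 0.9999 for each, from limma). These 2 genes were also picked by their DG results.

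**Figure D5:**
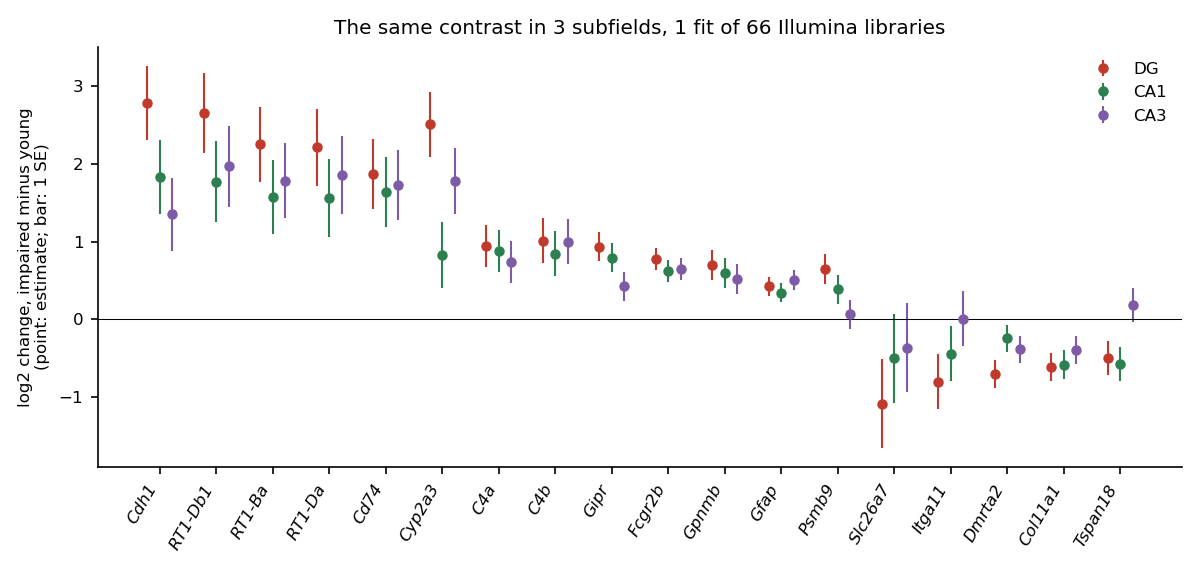
Points give the log2 change of AI against young rats in DG (red), CA1 (green) and CA3 (purple) for 18 named genes from 1 fit of 66 Illumina libraries, and bars are 1 SE. The class II genes, C4a, C4b, Fcgr2b and Gfap lie above 0 in all 3 subfields, and the points of Cyp2a3 run from 0.83 in CA1 to 2.51 in DG.

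Of the 25 genes that the study had set out as shared by old rats of every subfield, 24 were higher in AI rats, 3 were called and 20 retested, with a median log2 change of 0.44. That list was chosen on these rats and is no independent evidence. Other members were Bpifb4, at 1.07, and the collagen gene Col4a5, at -0.35.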

How the data were processed

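RNA of hippocampal subfields was sequenced from male Fischer 344 rats, and the DG libraries of AI, AU and young rats were grouped by their labels. In each of the 3 tables the authors deposited a normalised signal per gene and library, which is a gene count divided by the size factor of the library. For the Illumina libraries the sources name poly-A selection, and the submitters' processing notes name bcl2fastq 2.17, cutadapt 1.8.3, STAR 2.5, the rat build rn5, featureCounts 1.4.4 and DESeq2 1.16.1. Ion Proton reads were aligned with TopHat2 and Bowtie2. For the WT table the library type, aligner and counter are not given in the sources used here, nor whether any counting used strand, so reads of overlapping and antisense genes may be mixed.

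Values above 0 were whole multiples of the value of 1 read in 100.0% of cases in each table (tolerance 0.001 reads), and the recovered reads gave the depths and the count tests. The tables listed 26284 (Illumina, WT) and 26341 (Ion Proton) genes, 48 of them without a symbol. Normalised values were tested as log2(value + 1) over genes with a mean of at least 10, with limma 3.58.1 (trended variance, R 4.3.3) and Benjamini-Hochberg adjustment. For genes of low value such changes can lie below or above those of the count tests (RT1-Db1 2.66 against 2.84 in edgeR, Cyp2a3 2.51 against 1.68). Genes were called at an adjusted p under 0.05. Retested genes had an Illumina p under 0.01 and a one-sided Ion Proton p under 0.05 in the same direction, which are the thresholds of the study. AI against AU used 34 DG libraries in 1 fit, and subfield differences used 66 libraries.

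The rat number pairs libraries of different subfields of 1 animal, and the median correlation of their deviations was 0.21 for CA1 and DG and -0.04 for CA3 and DG. It was therefore a replicate block in an alternative fit of the subfield differences. AI and young rats are different animals and carry no pairing.

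Alternatives were edgeR 4.0.16 and DESeq2 1.42.0 on the recovered reads, another pseudocount (0.1), another filter (none or 50), quantile or TMM scaling, sample weights, the number series as a term or each series alone, and leaving out libraries. The omission of rats R9781 and R9881 together, the interaction with the series and the comparison of young rats between series were chosen after seeing the data. The steps were tested on simulated data.

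Named genes were the called and retested genes with the largest change (up to 8 in each direction), where fewer than 3 of those fell the 5 lower retested genes of largest change, up to 4 members of each list with the smallest p, and Cdh1, Cyp2a3, Gfap, Cd74, Dcx, Mki67, Prox1 and C1ql2. Man2b2, Anxa4, Emr1, Cd53, Mpeg1, Gpr183, Ciita, RT1-Db2 and the single markers of other immune cells were named after their values were seen. The groups, gene lists and tests were chosen with earlier results of these data known.

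Promoter windows came from RefSeq (GRCr8) by gene symbol, and no position of build rn5 was used.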

Additional observations from a re-analysis of the deposited data

Results flagged for a closer look

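Among 41 named genes, 7 had a young DG library whose gap to the nearest other young library was too large a share of the range of the 10 libraries by Dixon's 95% limit. Chance alone gives such a gap in about 1 of 20 groups.

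Rat R9881, whose granule score was below 0, gave 5 of the 7. Its Prox1 value was 326 normalised reads while the other young libraries ran from 880 to 1651, and its C1ql2 value was 406 against 1177 to 2533. Its Itga11 value was 36.8 against 84.9 to 182. The same library was highest for Dcx, at 1056 against 417 to 655, and for Gpnmb, at 199.8 against 91.0 to 132.

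The other values were low ones. Rat R2176 had 20.6 for C4a while the other young libraries had 40.7 to 59.1, and rat R2175 had 3.64 for Cd68 against 8.40 to 15.4. Explanations for these gaps were not tested.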

How the results depend on the processing

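The 14 Illumina calls became 33 with DESeq2, 7 with a filter of 50, 32 in the fit of 34 libraries, 59 (57 higher, 2 lower) with the number series as a term, 44 with sample weights, 2 among rats below 9000, 5 among rats from 9000 up, 9 without the library nearer to another subfield (rat R9781) and 23 without rats R9781 and R9881. With 1 rat left out they ran from 8 to 35. The highest counts came without young rat R9881 (35) and AI rat R2233 (22), the lowest without young rats R1922, R2176 and R2221 (8 each) and AI rats R9781, R9870 and R9874 (9 each). The DESeq2, series, weighted and 23-gene calls each held all 14, while without libraries of over 25 M reads 12 genes were called, 9 of them among the 14, and 67 of the 133 retested genes were retested again. Fewer genes were tested under the filter of 50, and fewer rats were fitted within a series. The cause of these shifts was not tested.

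The 133 retested genes became 204 with the series as a term, 87 below 9000, 268 with weights and 213 without rats R9781 and R9881, and 101 to 234 with 1 rat left out. Ion Proton calls (2) became 8 with edgeR, 8 with the series and 1 without rat R9781. They were also 20 with DESeq2, 36 with weights, 9 in the fit of 34 libraries, 6 from 9000 up and 1 to 10 with 1 rat left out (10 without R2233). Limma gave 0 with a filter of 50, with a pseudocount of 0.1 and below 9000, where 851, 1029 and 463 genes had an unadjusted p under 0.05. WT calls (9) became 15 with edgeR and 31 with the series.

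Among 41 named genes, the other immune cell markers not counted, 21 of 1586 alternative values changed sign, all of Mki67, Prox1 and C1ql2. Of those markers Mrc1 kept its sign in 19 of 36 alternatives and Cd163 in 27 of 36. Mki67, at -0.02, became 0.0055 below 9000, 0.0505 with weights, 0.0553 without rat R9781 and 0.15 without libraries of over 25 M reads, and ran from -0.13 to 0.0553 with 1 rat left out. Prox1, at -0.29, became 0.0431 without the libraries of over 25 M reads, and ran from -0.48 to -0.06 (without R9781) with 1 rat left out. C1ql2, at -0.14, became 0.0604 below 9000, 0.0666 with weights, 0.15 without rat R9781, 0.24 without libraries of over 25 M reads and 0.13 in the Ion Proton table, and ran from -0.35 to 0.15 with 1 rat left out.

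AI against AU gave 0 calls under each alternative run (edgeR, DESeq2, old rats alone, the series as a term, without rats nearer to another subfield). The replicate block, with the pairing by rat, left the calls of DG against CA1 and of DG against CA3 at 0 in limma and in edgeR, and changed no call.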
